A study of Mus musculus with 78 samples.

Results

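UGDH, the enzyme that makes UDP-glucuronate, and 4 UDP-glucuronosyltransferases that consume it, UGT1A1, UGT1A6A, UGT2B5 and UGT2B35, were followed in mouse liver over 78 weeks of exposure to dichloroacetic acid (DCA) and of recovery from it. The 5 genes were chosen by name from the TempO-Seq S1500+ mouse panel, a targeted assay that counts reads from ligated probe pairs. All 5 are among the 2205 genes that the authors kept in their filtered table, and these 2205 genes were tested. Male B6C3F1 mice drank deionized water with DCA at 3.5 g/L from about 4 weeks of age, or deionized water alone. Livers of water controls were taken at weeks 10, 32, 57 and 78 of the study (Control-10, Control-32, Control-57 and Control-78). S1 mice had DCA for 10 weeks and were sampled at once (S1-10) or after 22, 47 or 68 further weeks on water (S1-32, S1-57 and S1-78). S2 mice had DCA for 32 weeks and were sampled at once (S2-32) or after 46 weeks on water (S2-78). S3 mice had DCA for 57 weeks and were sampled at once (S3-57) or after 21 weeks on water (S3-78), and Direct-78 mice had DCA for all 78 weeks. Each library came from sections of 1 formalin-fixed liver block of 1 mouse, with 6 mice per group, and the authors kept 68 of the 78 libraries. The number after the hyphen in a group's name is the week of collection.

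Glucuronidation joins glucuronic acid to bilirubin, steroids, phenols, bile acids and many drugs, which makes them soluble enough to leave in bile or urine. UGDH oxidizes UDP-glucose to UDP-glucuronate, the donor for every UGT enzyme of the UGT1 and UGT2 families, and hepatocytes are the main liver cells that run the reaction. UGT1A enzymes are made from alternative first exons spliced to a common set of later exons, while each UGT2B enzyme has a gene of its own, and nuclear receptors, AHR and NFE2L2 are known regulators of several of them.

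The members lie on 2 chromosomes (GENCODE M21, GRCm38): UGDH at chr5:65413221-65435949, UGT2B5 at chr5:87124960-87140318 and UGT2B35 at chr5:87000860-87013275, with UGT1A1 at chr1:88211959-88218997 and UGT1A6A at chr1:88134809-88218997. Promoter sequences, 250 bases before to 50 after the start of the gene, were found for 5 of 5 members and for 11 of the 14 UGDH and UGT genes on the panel. The promoter of UGDH is shown because this gene fell in 3 DCA groups of weeks 10 and 32. Those of UGT2B5 and its neighbour UGT2B36 are shown because UGT2B36 was the tested gene most like UGT2B5 across libraries. All 3 are from RefSeq (GRCm38.p6, minus strand, written 5′ to 3′): UGDH at chr5:65435793-65436092, UGT2B5 at chr5:87140291-87140590 and UGT2B36 at chr5:87092506-87092805. Capitals in UGDH mark the matches, on either strand, of TGACNNNGC, the core of the antioxidant response element, and of GCGTG, the core bound by AHR. Capitals in UGT2B5 and UGT2B36 mark the longest run that both share, 24 bases.
UGDH promoter: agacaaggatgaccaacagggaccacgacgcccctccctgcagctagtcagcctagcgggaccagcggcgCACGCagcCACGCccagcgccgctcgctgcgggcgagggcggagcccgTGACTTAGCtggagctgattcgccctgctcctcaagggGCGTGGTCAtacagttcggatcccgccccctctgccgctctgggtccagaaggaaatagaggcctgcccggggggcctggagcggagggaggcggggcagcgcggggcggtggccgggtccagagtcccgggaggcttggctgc
UGT2B5 promoter: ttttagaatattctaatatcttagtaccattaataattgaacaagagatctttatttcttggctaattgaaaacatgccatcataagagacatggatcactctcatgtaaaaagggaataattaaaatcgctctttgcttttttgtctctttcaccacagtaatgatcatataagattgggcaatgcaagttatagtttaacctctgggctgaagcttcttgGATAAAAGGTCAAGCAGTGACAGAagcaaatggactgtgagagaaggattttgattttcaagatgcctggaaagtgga
UGT2B36 promoter: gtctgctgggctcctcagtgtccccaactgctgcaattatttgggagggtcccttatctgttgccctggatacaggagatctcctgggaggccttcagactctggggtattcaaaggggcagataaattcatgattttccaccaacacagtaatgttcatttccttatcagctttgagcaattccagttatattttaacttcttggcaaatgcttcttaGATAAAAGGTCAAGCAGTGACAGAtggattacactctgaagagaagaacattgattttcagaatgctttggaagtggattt
UGDH holds 2 matches of TGACNNNGC, a pattern present in 12.4% of all 32851 mouse promoters of this length in the table, and 3 of GCGTG, present in 32.4%, and 1 match of each overlaps the other. The shared run of UGT2B5 and UGT2B36 holds AGGTCA, a pattern bound by nuclear receptors that occurs in 16.3% of promoters and in 5 of the 11 matched here (UGT1A7C, UGT1A9, UGT2B35, UGT2B36 and UGT2B5). TTGCNNAA, a C/EBP pattern found in 10.8% of promoters, occurs in UGT2B5 and UGT2B36 alone among the 11. GGGCGG, the GC box, occurs in UGDH and UGT1A6A and in 35.7% of promoters. GTTAAT, part of the HNF1 pattern, occurs in UGT1A1, UGT1A6A, UGT1A9 and UGT1A10 and in 7.1% of promoters. These are matches of letters, and binding was not measured.

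The kept libraries held between 541245 and 4285848 counts each, with a median of 2162678. Direct-78, with 3 kept libraries, was the shallowest group, with a median of 671116 counts and a range of 541245 to 699825. The next shallowest groups were S3-78 (median 1359655.5, 4 kept), S2-78 (1390514.5, 4 kept) and S3-57 (1584078, 5 kept). The remaining groups had median totals of 1930473.5 for Control-10 (4 kept), 1987260.0 for Control-32, 2875739.5 for Control-57, 3505219.5 for Control-78, 1965692 for S1-10, 3285609 for S1-32, 2659690.0 for S1-57, 2684483.5 for S1-78 and 2426390.5 for S2-32, with 6 kept in each of those 8 groups after Control-10. UGDH took 0.848% of all counts in the kept libraries, UGT2B35 0.167%, UGT1A6A 0.0681%, UGT1A1 0.0267% and UGT2B5 0.0185%. Values below are CPM (counts per 1e6 counts) scaled by TMM factors, and since probes differ in efficiency and abundant transcripts were attenuated by design, levels are compared between groups and not between genes.

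Several libraries stood apart. Control-10 mouse 68 had the lowest summed level of the 5 measured hepatocyte markers (7852.5 CPM against a median of 37807.1), and it had the highest UGDH of all kept libraries at 67825.9 CPM. The 10 libraries that the authors left out had at most 658155 counts, and 8 of them were from DCA groups of weeks 57 and 78. When the squared Spearman correlation of each library with the mean library was recomputed, 11 libraries were under the authors' limit of 0.7, of which 9 were left out by the authors and 2 were kept, Control-32 mouse 75 (0.628) and Direct-78 mouse 66 (0.641). Markers of exocrine pancreas, 12 of 14 on the panel with CEL the most abundant, summed to 28930.4 CPM in S1-78 mouse 36, 15692.6 in S2-78 mouse 47, 5586.3 in S1-10 mouse 17 and 2911.8 in S1-32 mouse 19, against a median of 18.5 over all kept libraries. PRSS2, PNLIP, PNLIPRP1 and CPB1 of that list were at 0 in at least 50% of the libraries. Calls of the 5 genes against age-matched controls that depend on any of these libraries are given with and without them.

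A gene was called when its Benjamini-Hochberg adjusted p in edgeR's quasi-likelihood test was 0.05 or less and its fold change was over 1.5. The first question was how each DCA group differed from the water control of the same week. UGDH fell in S1-10, S1-32 and S2-32, UGT2B35 fell in S1-32, UGT1A6A fell in S1-57, S3-57, S3-78 and Direct-78, and UGT2B5 fell in S3-78 and Direct-78. UGT1A1 was called in no comparison, and no member rose against its age-matched control. Of the 5 members, 1 was called in S1-10, where 5.49% of all tested genes were called, and 2 in S1-32, where 29.1% were. In S2-32, 1 member was called beside 10.7% of all genes. At week 57, 1 was called in S1-57 (1.59% of all genes) and 1 in S3-57 (6.39%). At week 78, no member was called in S1-78, where 40 genes or 1.81% were called, nor in S2-78, where 36 or 1.63% were. By edgeR 299 and 344 genes had an unadjusted p under 0.05 in these 2 comparisons, and DESeq2 called 1 member in S1-78 and none in S2-78. In S3-78, 2 members were called beside 13.3% of all genes, and in Direct-78, 2 beside 24.4%. The comparisons of 1 week share their controls, so they are not independent of each other. The median log2 change of all tested genes lay between -0.03 and 0.07 in 8 of the comparisons and at -0.33 in Direct-78, where it was 0.07 with RLE scaling and 0.12 with upper-quartile scaling. RNA was measured in whole liver sections, so fewer cells of a type and less RNA per cell cannot be told apart.

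**Figure D1:**
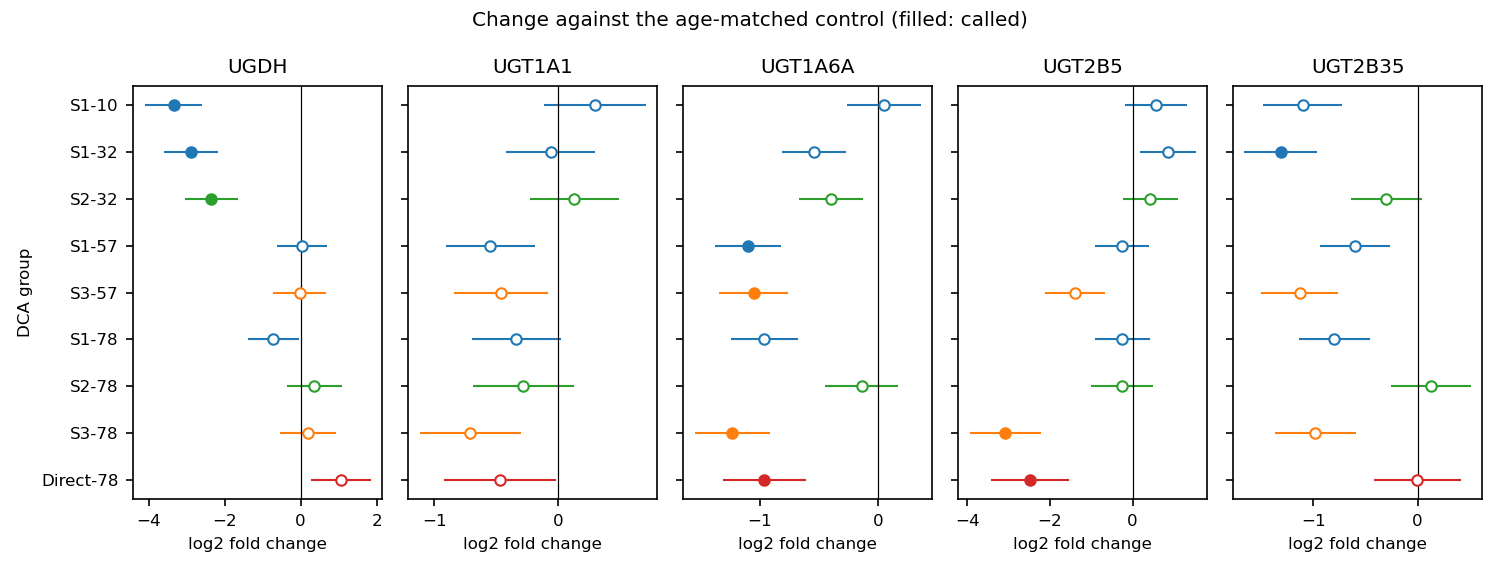
Log2 fold change of each gene in each DCA group against the water control of the same week, with the standard error of the fit as bars and filled points for called changes. UGDH points lie at -3.35, -2.88 and -2.36 in S1-10, S1-32 and S2-32 and between -0.72 and 1.06 from week 57 on, while the filled points of UGT1A6A and UGT2B5 are all from weeks 57 and 78 (the Direct-78 points of both are not called with RLE or upper-quartile scaling).

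UGDH, which supplies the donor sugar, was lower in the livers taken after 10 weeks of DCA than in every control of that week, and it was low at week 32 both with DCA continued and after 22 weeks on water. In S1-10 it ranged from 1789.4 to 2630.0 CPM with a median of 2157.7, a narrow band around a mean of 2160.2 ± 289 (SD, n = 6). The Control-10 libraries had 3621.4, 4598.7, 12303.6 and 67825.9 CPM, a mean of 22087.4 ± 30738.6 (SD, n = 4) that rests largely on mouse 68. All 6 S1-10 libraries were below all 4 controls, as was the case for 5.8% of tested genes, and the log2 change was -3.35 ± 0.76 (SE, adjusted p = 0.00649). Without mouse 68 the change was -1.66 with an adjusted p of 0.443, so the call rests on that library.

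At week 32, UGDH ran from 4451.5 to 36906.0 CPM in Control-32 with a median of 17550.9 (mean 20203.4 ± 12836.0, SD, n = 6). In S1-32 it ran from 1943.0 to 5012.1 CPM with a median of 2395.9 (mean 2741.8 ± 1143.9, SD, n = 6), and 5 of 6 libraries were below all controls. UGDH fell by 2.88 on the log2 scale there (SE 0.71, adjusted p = 0.00277). That call was kept in all 12 fits that each left out 1 library, with changes from -3.14 to -2.70. In S2-32 the range was 1911.9 to 8875.3 CPM with a median of 2728.1 (mean 3943.4 ± 2738.5, SD, n = 6), and 4 of 6 libraries were below all controls. The change was -2.36 ± 0.70 (SE, adjusted p = 0.0215), and it was not called without S2-32 mouse 37 (-2.22, adjusted p = 0.0505), Control-32 mouse 76 (-2.14, adjusted p = 0.0558) or Control-32 mouse 78 (-2.27, adjusted p = 0.0512).

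From week 57 on, UGDH varied widely within groups and no DCA group was called. Control-57 ranged from 3010.3 to 23478.9 CPM (median 8089.1) and Control-78 from 3454.1 to 20107.5 CPM (median 12394.2). S1-57 spanned 1878.3 to 31788.5 CPM with a median of 6174.0, and the highest of its libraries, mouse 28, had 919268 counts, the fewest of that group. In S1-78, 4 of 6 libraries were at 1489.5 to 2107.4 CPM, below all 6 controls, while mouse 31 had 7301.4 CPM and mouse 32 had 28714.8 CPM. The fitted change in S1-78 was -0.72 (adjusted p = 0.688), and it was -2.04 in the fit that left out 1 library and moved it most. S3-57 libraries had 3809.6, 9070.5, 10296.6, 11802.5 and 15177.5 CPM, all within the range of their controls. S3-78 libraries had 8271.4, 10008.7, 16447.1 and 19779.7 CPM, likewise within the range of theirs. S2-78 libraries had 1803.4, 3791.6, 8285.7 and 46804.6 CPM, the last from mouse 47, which also carried pancreas signal. Direct-78 libraries had 13729.0, 21902.5 and 38630.2 CPM, with 2 of 3 above all controls (log2 change 1.06 ± 0.79, SE, adjusted p = 0.312).

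**Figure D2:**
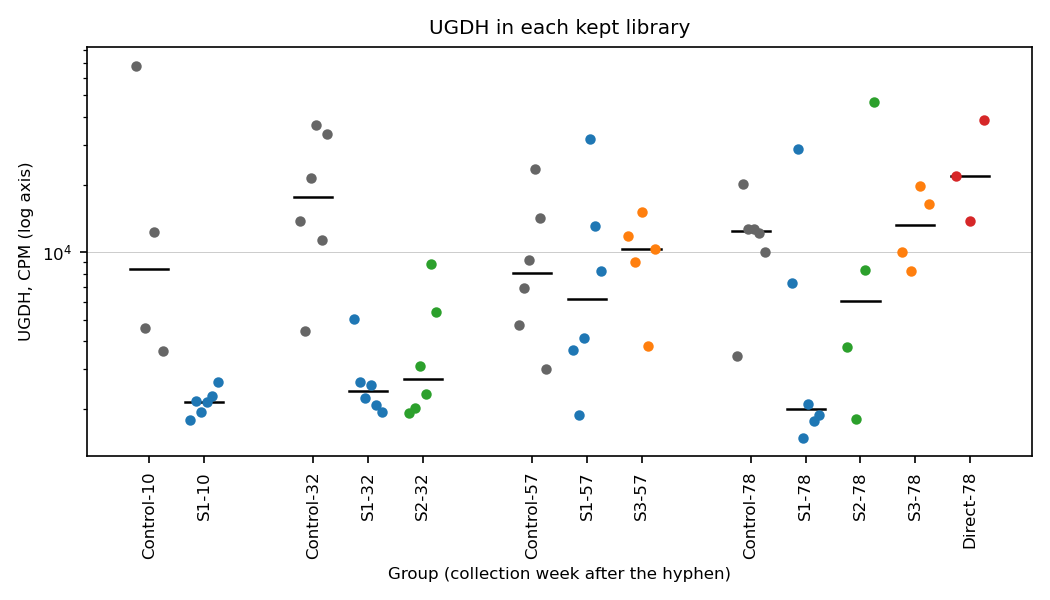
UGDH in CPM on a log axis, 1 point per kept library, with a line at each group's median. The 6 points of S1-10 lie between 1789.4 and 2630.0 CPM, and in S1-78 4 of 6 points lie at or below 2107.4 CPM while mouse 32 is at 28714.8 CPM.

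Ordered by mean, UGDH was highest in Direct-78 (24753.9 ± 12693.1 CPM, SD, n = 3) and then Control-10, Control-32, S2-78 (15171.3 ± 21262.4), S3-78 (13626.7 ± 5403.2), Control-78 (11848.7 ± 5357.2), S1-57 (10462.3 ± 11196.4), Control-57 (10274.8 ± 7554.7), S3-57 (10031.4 ± 4163.1) and S1-78 (7209.6 ± 10763.8). S2-32, S1-32 and S1-10 were the 3 lowest, and the highest mean was 11.5 times the lowest. None of the 12 pairs of neighbours in this order differed by more than the larger SD of the pair. The test of the difference between changes asked whether the change of another DCA group differed from that of S1-10, by adjusted p alone. The change of UGDH was 3.32 higher in S3-57 than in S1-10 (SE 1.01, adjusted p = 0.0316), where 6.21% of all genes had a called difference and UGDH was the 1 member called. It was 3.38 higher in S1-57 (SE 1.00, adjusted p = 0.0424), with 1 member called beside 3.67% of all genes. It was 4.42 higher in Direct-78 (SE 1.07, adjusted p = 0.00173), with 2 members called beside 33.8%. Without Control-10 mouse 68 these differences were 1.63 (adjusted p = 0.448), 1.69 (adjusted p = 0.516) and 2.73 (adjusted p = 0.053), and none was called. The S3-57 difference was also lost without S3-57 mouse 51 or Control-57 mouse 79, 80 or 84 (adjusted p up to 0.075). The S1-57 difference was lost in 13 of 22 fits that each left out 1 library: any of the 6 S1-10 mice, S1-57 mice 28 (2.72, adjusted p = 0.125) and 29, Control-10 mouse 68 and Control-57 mice 79, 80, 81 and 84. With the log2 total count as a covariate none of the 3 UGDH differences was called, at 1.27 for S3-57 (adjusted p = 0.613), 1.70 for S1-57 (adjusted p = 0.426) and 0.18 for Direct-78 (adjusted p = 0.976). No member had a called difference in S2-32 (41 genes, 1.86% of all) or in S1-78 (93 genes, 4.22%), with DESeq2 counting 0 and 1 members. In S1-32 no gene of the 2205 had a called difference by edgeR, with 220 at an unadjusted p under 0.05.

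UGT1A6A, which conjugates small planar phenols, was the member with the steadiest difference in TMM-scaled CPM late in the study. In those CPM it was below every control library in 5 of the 6 DCA groups of weeks 57 and 78, S2-78 being the exception. As a percentage of library counts, without TMM factors, each of the 5 groups overlapped its controls. S1-57 reached 0.0938% (mouse 30) and S3-57 0.0915% (mouse 54), against a lowest value of 0.084% in Control-57 (mouse 81). S1-78 reached 0.0872% (mouse 35), S3-78 0.0668% (mouse 56) and Direct-78 0.0891% (mouse 65), against a lowest value of 0.0635% in Control-78 (mouse 90). In the water controls UGT1A6A averaged 562 ± 129 CPM at week 10 (SD, n = 4), 866 ± 196 at week 32, 1076.5 ± 120.5 at week 57 and 1016.0 ± 234 at week 78 (n = 6 each). All 6 libraries of Control-57 and all 6 of Control-78 were above all 4 of Control-10, which 3.17% and 4.31% of tested genes also showed. Neither difference was called (log2 0.94, adjusted p = 0.0837, and 0.85, adjusted p = 0.113). The age comparison of Control-32 gave 0.62 with an adjusted p of 0.278. In DCA groups of weeks 10 and 32 UGT1A6A was at 582 ± 93.2 CPM in S1-10, 595 ± 142 in S1-32 and 658 ± 191 in S2-32 (SD, n = 6 each), and no change was called. S1-32 had a change of -0.54 (adjusted p = 0.121) that was called with RLE and upper-quartile scaling and with DESeq2.

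At week 57 the controls ran from 918 to 1219.4 CPM of UGT1A6A with a median of 1055.5. S1-57 ran from 177 to 820.0 CPM with a median of 477 (mean 503 ± 237, SD, n = 6), and S3-57 libraries had 360.3, 364, 560.0, 598 and 710.5 CPM (mean 519 ± 153, SD, n = 5). All 6 and all 5 libraries were below all controls, which 0.726% and 2.54% of tested genes also were. UGT1A6A fell by 1.10 on the log2 scale in S1-57 (SE 0.28, adjusted p = 0.0288), 47 weeks after DCA ended, and by 1.05 in S3-57 (SE 0.29, adjusted p = 0.0196), at the end of exposure. The S1-57 call was lost without S1-57 mouse 25, 27 or 28 or Control-57 mouse 82 or 83, with changes of -1.02, -0.92, -1.03, -1.05 and -1.05 and adjusted p from 0.0565 to 0.0805. The S3-57 call was lost without mouse 49 (-0.95, adjusted p = 0.0711) or mouse 51 (-0.95, adjusted p = 0.086). With all 78 libraries neither was called (-1.10, adjusted p = 0.385, and -1.18, adjusted p = 0.101), nor was S1-57 in a fit of the compared groups alone (-1.13, adjusted p = 0.192). Of all 2205 tested genes, the fit of all 78 libraries called 2 in S1-57 and 12 in S3-57. The fit of the compared groups alone called 2 in S1-57.

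At week 78 the controls ran from 770.4 to 1401.6 CPM of UGT1A6A with a median of 1034.9. S3-78 libraries had 289.9, 354, 516 and 567 CPM (mean 432 ± 131, SD, n = 4) and Direct-78 libraries 311, 607 and 650.5 CPM (mean 523 ± 185, SD, n = 3). None reached the lowest control, as for 7.85% of tested genes in S3-78 and 13.9% in Direct-78. UGT1A6A fell by 1.23 in S3-78 (SE 0.32, adjusted p = 0.00636), a call kept in all 10 fits that each left out 1 library, and by 0.96 in Direct-78 (SE 0.35, adjusted p = 0.0385). The Direct-78 value is to be set against the median of all genes of -0.33, and with RLE and upper-quartile scaling it was -0.57 (adjusted p = 0.189) and -0.51 (adjusted p = 0.258), not called. It was also not called without any 1 of Direct-78 mice 64 (-0.69, adjusted p = 0.227), 65 and 66 or of Control-78 mice 85, 86, 88 and 89, with adjusted p from 0.0562 to 0.227. S1-78 libraries had 138, 482, 531, 605, 622 and 765 CPM (mean 524 ± 212, SD, n = 6), also below all controls (0.998% of genes), and its change of -0.96 had an adjusted p of 0.0511. It was called without S1-78 mouse 32 (-0.96, adjusted p = 0.0499), S1-78 mouse 35 (-1.10, adjusted p = 0.0261) or Control-78 mouse 85 (-0.99, adjusted p = 0.0482). S2-78 stood apart from these groups with 669, 754, 964 and 1307.5 CPM (mean 924 ± 284, SD, n = 4), 2 of 4 libraries being below all controls, and a change of -0.14 (adjusted p = 0.883).

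The means of UGT1A6A ran from 1076.5 CPM in Control-57 down to 432 in S3-78, a ratio of 2.49, and 1 of 12 neighbouring pairs differed by more than the larger SD. Whether its change differed from that of S1-10 was tested for S1-57, S3-57, S1-78 and Direct-78 and was not tested for S3-78 or S2-78. The difference was -1.15 for S1-57 (adjusted p = 0.106), -1.10 for S3-57 (adjusted p = 0.106), -1.01 for S1-78 (adjusted p = 0.149) and -1.01 for Direct-78 (adjusted p = 0.0809), and none was called by edgeR in the 68 libraries. With all 78 libraries those of S3-57 and Direct-78 were called, and that of S3-57 also in a fit of the compared groups alone. In the GENCODE transcripts, 96% of the 50-base stretches of UGT1A6A also occur in another UGT gene and 94.2% in UGT1A7C, against 58.2% for UGT1A1. The files do not give the probe positions, so signal of UGT1A6A and UGT1A1 from other UGT1A transcripts cannot be told apart from their own.

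UGT1A1, the enzyme that conjugates bilirubin, had the flattest profile of the 5 genes. Its group means lay between 192 CPM in S3-78 (SD 142, n = 4) and 337 CPM in S2-32 (SD 65, n = 6), a ratio of 1.76, and its libraries between 50.9 and 537 CPM. No neighbouring pair in the order of the 13 means differed by more than the larger SD. The changes against age-matched controls were 0.30 in S1-10, -0.06 in S1-32, 0.13 in S2-32, -0.55 in S1-57, -0.46 in S3-57, -0.34 in S1-78, -0.28 in S2-78, -0.71 in S3-78 and -0.47 in Direct-78, with adjusted p from 0.249 upward. In S3-78 the libraries had 50.9, 155, 171 and 389 CPM, and without mouse 56, the highest, the change was -1.30 with an adjusted p of 0.0342.

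UGT2B5, an enzyme of steroids and other lipophilic compounds, fell at week 78 in the groups with 57 and 78 weeks of DCA. Control-78 libraries ran from 125 to 267 CPM with a median of 199 (mean 202 ± 56.5, SD, n = 6). S3-78 libraries had 3.71, 5.11, 28.2 and 57.5 CPM (mean 23.6 ± 25.2, SD, n = 4) and Direct-78 libraries 20.2, 25.7 and 62.2 CPM (n = 3). Every one of these 7 libraries was below every control, as for 7.85% of tested genes in S3-78 and 13.9% in Direct-78. UGT2B5 fell by 3.09 on the log2 scale in S3-78 (SE 0.86, adjusted p = 0.0108) and by 2.49 in Direct-78 (SE 0.95, adjusted p = 0.0459). The S3-78 change was -2.75 without mouse 55 (adjusted p = 0.0595, not called) and -4.03 without mouse 56. The Direct-78 call was lost without any 1 of Direct-78 mice 64, 65 and 66 or Control-78 mice 85, 86, 87, 89 and 90, with changes from -3.10 to -2.03 and adjusted p from 0.05 to 0.157. With RLE and upper-quartile scaling the Direct-78 change was -2.04 (adjusted p = 0.0823) and -1.96 (adjusted p = 0.0888), not called.

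In the other DCA groups of weeks 57 and 78, UGT2B5 was spread out and no change was called. S3-57 libraries had 7.55, 43.4, 82.6, 84.2 and 125 CPM, 4 of 5 below all controls (-1.39, adjusted p = 0.285). S1-57 ran from 7.74 to 320.0 CPM (median 147) and S1-78 from 33.7 to 311 CPM (median 179). S2-78 libraries had 76.2, 282 and 319.8 CPM, and mouse 47 had 0 of 1187668 counts, which allows up to 2.59 CPM. At weeks 10 and 32 the DCA means were above those of the controls without passing the test, at 320.5 ± 55.9 CPM in S1-10 against 216 ± 146 in Control-10, and 269 ± 69.9 in S1-32 and 199.8 ± 88.4 in S2-32 against 148 ± 128 in Control-32 (SD). Control-10 mouse 68, the library with the highest UGDH, had the lowest UGT2B5 of its group at 7.67 CPM. The highest group mean, that of S1-10, was 13.6 times the lowest, that of S3-78, and no neighbouring pair in the order differed by more than the larger SD. The change in Direct-78 was lower than that in S1-10 (difference -3.06 on the log2 scale, adjusted p = 0.0411). That call was lost without S1-10 mouse 14, Direct-78 mouse 64 or 65, Control-10 mouse 68 or 71 or Control-78 mouse 85 or 87, with RLE and upper-quartile scaling, and with the log2 total count as a covariate (-0.97, adjusted p = 0.817). Of the 50-base stretches of UGT2B5, 41.7% also occur in another UGT gene, most often UGT2B38.

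UGT2B35, another enzyme of the UGT2B family, fell in S1-32. Control-32 ran from 1866.5 to 3838.1 CPM with a median of 3007.0 (mean 2991.4 ± 725, SD, n = 6), and S1-32 from 827 to 1549.9 CPM with a median of 1232.1 (mean 1209.0 ± 327, SD, n = 6). All 6 libraries were below all controls, as for 3.99% of tested genes, and UGT2B35 fell by 1.31 on the log2 scale (SE 0.35, adjusted p = 0.00514). The call was kept in all 12 fits that each left out 1 library. S2-32, with DCA still given, had 1309.3 to 3328.5 CPM (median 2785.7) and a change of -0.30 (adjusted p = 0.572). All 6 S1-10 libraries, at 819 to 1187.1 CPM, were also below all Control-10 libraries, as for 5.8% of tested genes. The Control-10 libraries had 1523.2, 2140.9, 2462.0 and 2621.2 CPM. The S1-10 change of -1.10 ± 0.38 (SE) had an adjusted p of 0.0732 and was called with RLE scaling, upper-quartile scaling, DESeq2 and a fit of the compared groups alone (adjusted p = 0.0476, 0.0391, 0.0278 and 0.0127).

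At week 57 UGT2B35 had 643, 673, 770.2, 1295.1 and 1685.5 CPM in S3-57 against 1281.4 to 3626.5 CPM in Control-57 (median 1718.8), with 3 of 5 libraries below all controls. The change of -1.13 had an adjusted p of 0.0503, and it was called without S3-57 mouse 54 (-1.42, adjusted p = 0.0172) or Control-57 mouse 79 (-1.21, adjusted p = 0.0442), 80 (-1.21, adjusted p = 0.0445) or 84 (-1.27, adjusted p = 0.0267). The changes of S1-57, S1-78 and S3-78 were -0.60, -0.80 and -0.98, with adjusted p of 0.476, 0.257 and 0.088. S2-78 (0.13) and Direct-78 (-0.0014, with 1060.3, 2264.6 and 3231.1 CPM) were close to their controls in the fit, and with RLE and upper-quartile scaling Direct-78 was at 0.40 and 0.47. The means ran from 2991.4 CPM in Control-32 to 1013.4 in S3-57, a ratio of 2.95, with no neighbouring pair apart by more than the larger SD. None of the 50-base stretches of UGT2B35 or of UGDH occurs in another UGT gene.

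**Figure D3:**
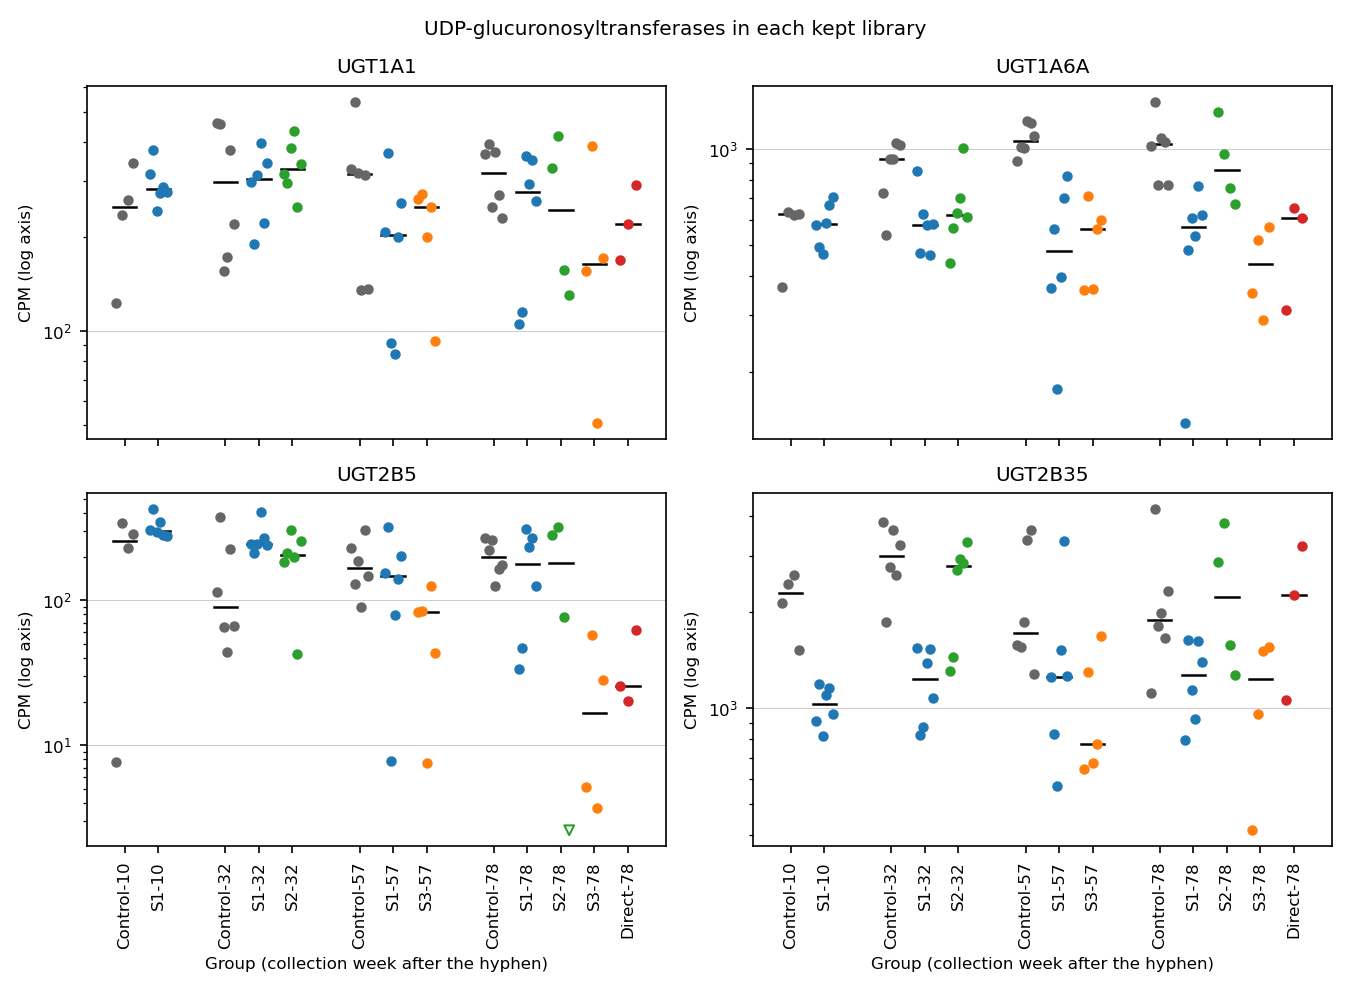
CPM of UGT1A1, UGT1A6A, UGT2B5 and UGT2B35 on log axes, 1 point per kept library, with a line at each group's median and an open triangle at the 2.59 CPM that a count of 0 allows. UGT1A6A lies at or above 770.4 CPM in all libraries of Control-57 and Control-78 and at or below 820.0 CPM in S1-57, S3-57, S1-78, S3-78 and Direct-78, and all 7 UGT2B5 points of S3-78 and Direct-78 lie at or below 62.2 CPM.

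A second question was whether longer or continued DCA differed from DCA that had been stopped earlier, at the same week. No member was called by edgeR with TMM scaling in any of the 5 comparisons. The share of all genes called was 3.54% (78) for S2-32 against S1-32, 5.03% (111) for Direct-78 against S3-78, 10.3% (227) for Direct-78 against S2-78 and 24.5% (540) for Direct-78 against S1-78. For S3-57 against S1-57 it was 0% by edgeR, with 111 genes at an unadjusted p under 0.05, 7 called by DESeq2 and 0 by limma. UGT2B35 was higher in S2-32 than in S1-32 by 1.01 (SE 0.35, adjusted p = 0.0891), with 4 of 6 libraries above all of S1-32, and was called there by DESeq2 and in a fit of the 2 groups alone. UGT2B5 was lower in Direct-78 than in S1-78 by -2.24 (adjusted p = 0.0669), with 2 of 3 libraries below all of S1-78, and UGDH was higher by 1.78 (adjusted p = 0.0801), with 1 of 3 above all of S1-78, and this UGDH difference was called with RLE scaling, all 78 libraries, DESeq2 and limma. UGT2B35 was higher in Direct-78 than in S1-78 by 0.80 (adjusted p = 0.132), with 2 of 3 above all of S1-78, and was called with RLE and upper-quartile scaling and DESeq2. UGT1A6A differed by -0.82 between Direct-78 and S2-78 (adjusted p = 0.144), with all 3 Direct-78 libraries below all 4 of S2-78 (as for 5.31% of tested genes), and by -0.0027 between Direct-78 and S1-78. In the water controls, no member was called at week 32, 57 or 78 against week 10, where 1.59%, 3.45% and 3.95% of all genes were called. DESeq2 called 1 member at week 57, UGT1A6A, and none at weeks 32 and 78.

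The panel holds 9 UGT genes besides the 4 members, and 8 of them were tested. UGT1A10, which was not, had a mean of at most 0.215 CPM in any group. UGT1A7C, an enzyme of the same locus as UGT1A6A, rose in both DCA groups of week 32, from 276 ± 292 CPM in Control-32 to 964 ± 159 in S1-32 and 929 ± 570.2 in S2-32 (SD, n = 6 each). All 6 S1-32 libraries were above all controls, as for 6.03% of tested genes, and the log2 change was 1.80 (SE 0.59, adjusted p = 0.0188), which was 1.55 without Control-32 mouse 75 (adjusted p = 0.0563) and 2.48 without mouse 74. In S2-32 the change was 1.74 (SE 0.59, adjusted p = 0.0432) with 3 of 6 libraries above all controls, and 7 of 12 single libraries ended that call when left out (S2-32 mice 39, 40 and 42 and Control-32 mice 73, 75, 76 and 78), with changes from 1.46 to 1.65, while without Control-32 mouse 74 it was 2.42. With all 78 libraries neither was called (1.77, adjusted p = 0.123, and 1.73, adjusted p = 0.227), and with the log2 total count as a covariate the S1-32 change was 0.89 (adjusted p = 0.438). In Direct-78 all 3 libraries of UGT1A7C were below all controls, as for 13.9% of tested genes (-1.92, adjusted p = 0.0603). UGT1A7C was called there without Control-78 mouse 86 (-2.01, adjusted p = 0.0451), with all 78 libraries (-2.47) and in a fit of the compared groups alone (-1.84), but turned to 1.21 at the highest of the alternatives. In S2-78 the covariate fit called UGT1A7C (2.65, adjusted p = 0.0254). Against S2-78 and S1-78, UGT1A7C was called lower in Direct-78 (-3.01, adjusted p = 0.019, and -2.18, adjusted p = 0.0358), as were UGT1A9 (adjusted p = 0.0261 and 0.0431), for which no fold is given because its count was 0 in all 3 Direct-78 libraries, and UGT2B36 (-2.73, adjusted p = 0.0299, and -2.22, adjusted p = 0.0353). No more than 2 of 3 Direct-78 libraries were below all of the other group in any of these 6. Each of the 6 calls was lost under 5 to 7 of 10 alternatives, the covariate among them, and in 3 to 6 of the 7 or 9 fits that each left out 1 library. Without Direct-78 mouse 66 the UGT1A7C changes were -2.74 (adjusted p = 0.0877) and -1.89 (adjusted p = 0.143).

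In S3-78, 3 of the 8 fell and none rose, beside 13.3% of all tested genes called. UGT2B36, the neighbour of UGT2B5, was at 31.3, 71.5, 81.5 and 227 CPM against 392 to 727 in Control-78, a change of -2.42 (SE 0.71, adjusted p = 0.0161) that was lost without S3-78 mouse 55 (-2.28, adjusted p = 0.0647) or 59 (-2.12, adjusted p = 0.07) and was -3.13 without mouse 56. UGT3A2, a transferase that uses other UDP-sugars, was at 450.1 ± 402 against 2155.2 ± 272 CPM. Its change was -2.26 (adjusted p = 0.00438), and -3.05 without mouse 56. All 4 of its libraries were below all controls, as for 7.85% of tested genes. UGT2B15, an androgen-conjugating family member, changed by -1.54 (adjusted p = 0.0181), lost without mouse 55 (-1.24, adjusted p = 0.107) or 56 (-1.39, adjusted p = 0.0505). In Direct-78, where 24.4% of all tested genes were called, UGT2B36 (-2.31, adjusted p = 0.0307) and UGT3A2 (-1.69, adjusted p = 0.0344) fell. All 3 libraries were below all controls for both, as for 13.9% of tested genes. With RLE and upper-quartile scaling neither was called in Direct-78, with UGT2B36 at -1.93 (adjusted p = 0.0514) and -1.85 (adjusted p = 0.0556) and UGT3A2 at -1.29 (adjusted p = 0.0754) and -1.22 (adjusted p = 0.0866). With the log2 total count as a covariate, UGT2B36 was at -1.40 (adjusted p = 0.237), UGT3A2 at -1.64 (adjusted p = 0.0619) and UGT2B15 at -1.37 (adjusted p = 0.111) in S3-78, and UGT2B36 at 0.08 and UGT3A2 at -0.25 in Direct-78, none called. The UGT2B36 call there was lost without Direct-78 mouse 64 (-1.87, adjusted p = 0.157) or 66 (-2.37, adjusted p = 0.0883), and that of UGT3A2 without Direct-78 mouse 64, 65 or 66 or Control-78 mouse 85 or 90, with changes from -1.73 to -1.49. The median change of the 8 genes was -1.21 in S3-78 and -1.23 in Direct-78, beside 0.07 and -0.33 for all genes, and 0.46 in S1-32 and 1.07 in S2-32, beside 0.05 in both. It was 1.15 in S2-78, beside 0.06, the highest of the 9 comparisons. UGT1A2, UGT1A5, UGT1A6B and UGT1A9 were called in no DCA group against age-matched controls by edgeR with TMM scaling, while DESeq2 called UGT1A5 (1.41, adjusted p = 0.0308) and UGT1A9 (3.78, adjusted p = 0.0478) in S2-78, limma called UGT1A6B in S1-32 (2.12, adjusted p = 0.0266) and the covariate fit called UGT1A9 in S2-78 (6.44, adjusted p = 0.0121). All 6 S1-10 libraries of UGT1A6B were above all of Control-10, as for 9.07% of tested genes (23.6 ± 5.69 against 6.42 ± 5.88 CPM, adjusted p = 0.224), and UGT1A6B in S1-32 was called without Control-32 mouse 74 (2.23, adjusted p = 0.0303).

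**Figure D4:**
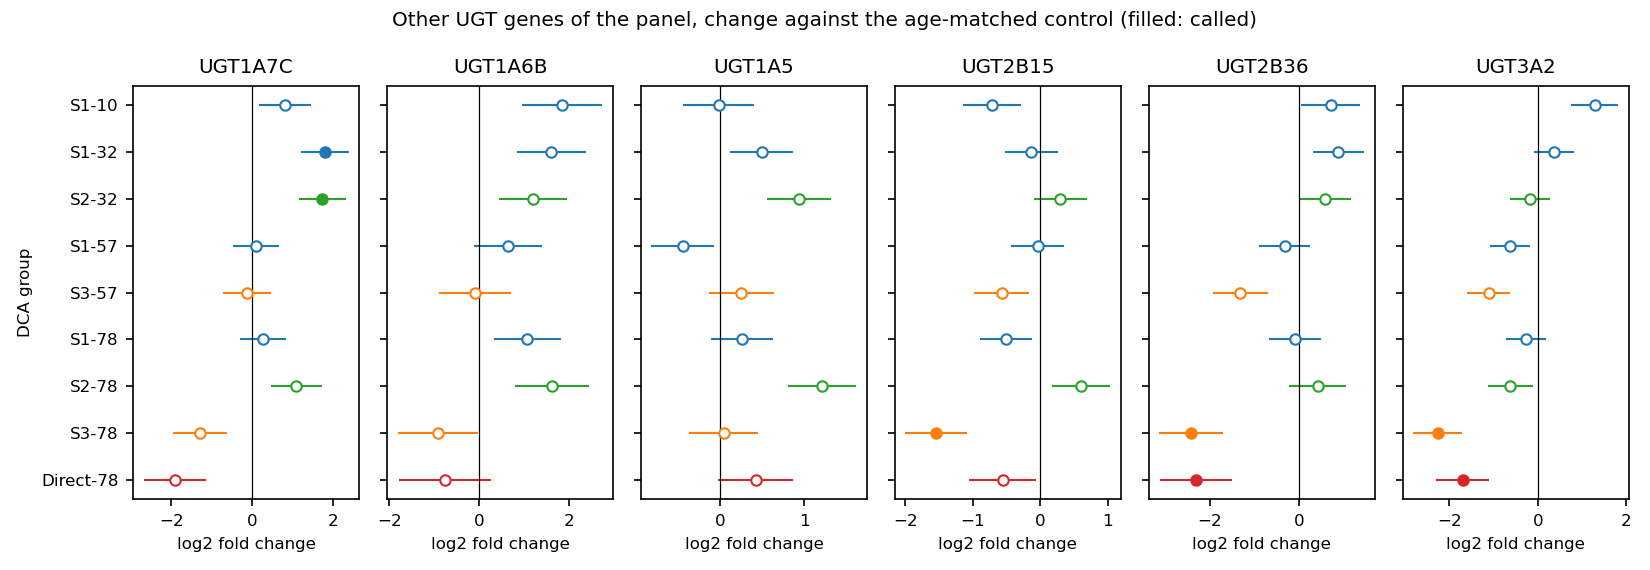
Log2 fold change of 6 other UGT genes against the water control of the same week, with the standard error of the fit as bars and filled points for called changes. UGT1A7C is filled at 1.80 and 1.74 in the DCA groups of week 32, and UGT2B36 and UGT3A2 are filled at -2.42 and -2.26 in S3-78 and at -2.31 and -1.69 in Direct-78, where neither is called with RLE or upper-quartile scaling.

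Other genes of the pathway were taken from fixed lists. Of the 15 genes listed for UDP-sugar supply, 5 were measured. PGM2, a phosphoglucomutase, rose in S1-32 by 0.82 (adjusted p = 0.0384, 2 of 6 libraries above all controls), a call that 7 of 12 single libraries ended when left out and that was 0.59 without Control-32 mouse 75 (adjusted p = 0.122). It was the 1 of the 5 called in S1-32, beside 29.1% of all tested genes. GUSB, the lysosomal glucuronidase that removes glucuronic acid again, was the 1 measured gene of 9 listed for glucuronate use. GUSB fell in Direct-78, where 24.4% of all tested genes were called, from 31.1 ± 16 to 7.65 ± 13.2 CPM (-2.07, adjusted p = 0.0168, 2 of 3 libraries below all controls). It was not called there without mouse 64 (-1.44, adjusted p = 0.129) or 66 (-1.45, adjusted p = 0.122).

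Of 12 genes listed for bilirubin formation, uptake and export, 8 were measured, and calls came in Direct-78 alone, where 3 fell and none rose, beside 24.4% of all tested genes called (413 of 539 lower). They were the canalicular exporters ABCC2 (-2.37, adjusted p = 0.0418, 3 of 3 libraries below all controls) and ABCG2 (-1.78, adjusted p = 0.0101, 3 of 3) and the uptake carrier SLCO2B1 (-1.67, adjusted p = 0.0428, 2 of 3). Of all tested genes, 13.9% had all 3 Direct-78 libraries below all controls. With RLE and upper-quartile scaling ABCC2 and SLCO2B1 were not called, and without Direct-78 mouse 64 none of the 3 was (adjusted p = 0.172, 0.0817 and 0.214). ABCC2 was also lost without Direct-78 mouse 66 or Control-78 mouse 85, 87, 89 or 90, and SLCO2B1 without Direct-78 mouse 66 or Control-78 mouse 85, 89 or 90. The median of the 8 was -0.81 in Direct-78 beside -0.33 for all genes.

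Of 14 listed regulators of UGT genes, 13 were measured, with calls in 5 of the 9 comparisons. In Direct-78, where 24.4% of all tested genes were called, 3 of the 13 fell: AHR, the receptor of planar aromatics (-2.75, adjusted p = 0.0244, 2 of 3 libraries below all controls), HNF4A, a hepatocyte factor (-2.19, adjusted p = 0.0137, 2 of 3), and KEAP1, the inhibitor of NFE2L2 (-1.19, adjusted p = 0.00725, 2 of 3). KEAP1 also fell in S3-78 (-0.88, adjusted p = 0.0304, 3 of 4), where ARNT, the partner of AHR, rose by 1.00 (adjusted p = 0.00636, 4 of 4 above all controls). The share of all tested genes above all controls was not computed for S3-78 or Direct-78, here or for the lists that follow. ARNT fell in S1-10 (-0.87, adjusted p = 0.0331, 3 of 6), and that change was -0.40 without Control-10 mouse 68 (adjusted p = 0.664) and was also lost without S1-10 mouse 14, 15, 17 or 18. Single libraries that ended the other calls when left out were Direct-78 mice 64, 65 and 66 for AHR, 64 and 66 for HNF4A and 64 for KEAP1, and for KEAP1 in S3-78 mice 55, 59 and 60 and Control-78 mice 87 and 90, with adjusted p from 0.053 to 0.115. Genes named after their values were seen were CEBPA, NR1H4 and STAT5B, the 3 of 13 that rose in S1-32 (29.1% of all tested genes called), and in S2-32 (10.7%) NR1I2, which rose, and ESR1, which fell.

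Of 16 listed targets of those regulators, 14 were tested. Called were 1 in S1-10 (5.49% of all tested genes), 4 in S1-32 (29.1%), 1 in S1-78 (1.81%), 3 in S2-78 (1.63%), 3 in S3-78 (13.3%) and 4 in Direct-78 (24.4%). CYP4A14 and CYP4A10, fatty acid hydroxylases induced through PPARA, fell in S1-32 (-7.32, adjusted p = 0.00494, and -4.74, adjusted p = 0.022, in both with no library below all controls) and rose in S2-78 (CYP4A10 by 10.46, adjusted p = 0.00229, and CYP4A14 by 8.20 to 11.96 with 1 library left out, adjusted p = 0.0109 with all, in both with 2 of 4 libraries above all controls). CYP4A14 also rose in Direct-78 (7.10, adjusted p = 0.0091, 3 of 3 above all controls), by 5.29 without mouse 65 and 10.09 without Control-78 mouse 86. The S1-32 changes were -9.12 and -6.76 without S1-32 mouse 22, and without Control-32 mouse 74 they were -6.42 and -3.50, the latter not called (adjusted p = 0.0591). NQO1, a quinone reductase induced through NFE2L2, rose in S3-78 (2.53, adjusted p = 0.0148, 4 of 4) and Direct-78 (2.28, adjusted p = 0.0289, 2 of 3), and was at 1.70 without S3-78 mouse 55 (adjusted p = 0.163) and 1.43 without Direct-78 mouse 65 (adjusted p = 0.213), the second call also being lost without Direct-78 mouse 64 or Control-78 mouse 89 or 90. SRXN1, another NFE2L2 target, fell in S1-78, S3-78 and Direct-78 (-2.89, -2.77 and -3.67), with 1 of 6, 1 of 4 and 2 of 3 libraries below all controls. Without Control-78 mouse 90 those changes were -1.14, -1.01 and -1.91, none of them called (adjusted p = 0.353, 0.311 and 0.0594), and the S3-78 call was also lost without mouse 55 (-2.60, adjusted p = 0.0545). The other calls on this list, named after their values were seen, were CYP3A11, which fell in S1-10 and rose in S2-78, CYP1A1 and TXNRD1, which fell in S1-32, and GCLM, which fell in S3-78 and Direct-78.

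Sulfation competes with glucuronidation for many of the same substrates, and 3 of 16 genes listed for it were tested. SULT3A1, a sulfotransferase, fell in S1-32 (-5.52, adjusted p = 0.0152, no library below all controls) and rose in S3-57 (6.39, adjusted p = 0.0019, 4 of 5 above all controls), S3-78 (8.30, adjusted p = 0.000299, 4 of 4) and Direct-78 (5.39, adjusted p = 0.00687, 3 of 3). It was the 1 of the 3 called in each, beside 29.1%, 6.39%, 13.3% and 24.4% of all tested genes. Its count was 0 in 5 of 6 S1-32 libraries and in 2 of 6 of Control-32, so the size of -5.52 is not exact. Its control levels were low, at 5.25 ± 6.25 CPM in Control-32, 2.49 ± 1.86 in Control-57 and 0.711 ± 0.617 in Control-78. Without S3-57 mouse 51 the S3-57 change was 1.49 (adjusted p = 0.598), and without S3-78 mouse 55 the S3-78 change was 4.28 (adjusted p = 0.042). Without Control-32 mouse 75 the S1-32 change was -4.68 (adjusted p = 0.0681), not called.

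For each member, tested genes among the 3 with the highest Pearson correlation in log2 CPM over the 68 kept libraries are given as a description. For UGDH they were ATP6V1D (0.93), PPP2R5A (0.90) and 1810009A15RIK (0.90). For UGT1A1 they were SLC10A1 (0.79), CYP2E1 (0.78) and RDH7 (0.75). For UGT1A6A they were EPHX2 (0.80), AADAT (0.78) and FMO5 (0.74), the last at 0.50 once group means were subtracted. For UGT2B5 they were UGT2B36 (0.94), ATP2C1 (0.88) and MUP15 (0.88). For UGT2B35, TIMM17A (0.75) and PDHX (0.74) are given, both at 0.62 once group means were subtracted.

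Within groups, UGDH and UGT2B5 ran against each other: libraries high in UGDH were low in UGT2B5. After each group's mean was subtracted, r was -0.64 over 68 libraries (permutation p = 0.00013, adjusted p = 0.000371) and rho was -0.55 (permutation p = 9e-05, adjusted p = 0.0003), and r was -0.57 without the 2 libraries farthest from the median of UGDH. The 20 relations computed, over members and 2 measures of library quality, were tested by 100000 two-sided permutations within groups and adjusted together. UGDH and UGT1A1 gave an r of -0.56 (permutation p = 4e-05, adjusted p = 0.00024; -0.51 without the 2 farthest) and a rho of -0.51 (permutation p = 0.00028, adjusted p = 0.0008). UGT1A1 and UGT2B5 went together across libraries, with an r of 0.67 (0.69 without the 2 farthest) and a rho of 0.75, adjusted p = 0.0001 for both and both at the smallest p that the permutations can give, 1e-05. UGT1A6A and UGT2B35 gave an r of 0.54 (permutation p = 6e-05, adjusted p = 0.00024; 0.49 without the 2 farthest) and a rho of 0.51 (permutation p = 9e-05, adjusted p = 0.0003), while UGDH and UGT1A6A gave -0.08 (adjusted p = 0.684) and -0.04 (adjusted p = 0.788). UGDH and UGT2B35 went together, with an r of 0.30 (adjusted p = 0.0425) and a rho of 0.36 (adjusted p = 0.0145). UGT1A6A gave an r of 0.45 with UGT2B5 (adjusted p = 0.00177) and 0.43 with UGT1A1 (adjusted p = 0.00574). UGT2B35 passed with neither UGT1A1 (r = 0.04, adjusted p = 0.786) nor UGT2B5 (r = 0.25, adjusted p = 0.144).

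The quality of the library moved with UGDH and UGT2B5. Libraries less like the mean library had more UGDH (r = -0.57, adjusted p = 0.00024; rho = -0.53, adjusted p = 0.0003) and less UGT2B5 (r = 0.68 and rho = 0.73, adjusted p = 0.0001 for both) and UGT1A1 (r = 0.54 and rho = 0.54, adjusted p = 0.0003 for both). Libraries with smaller totals had more UGDH (r = -0.45, adjusted p = 0.0042; rho = -0.33, adjusted p = 0.0284) and less UGT2B5 (r = 0.39, adjusted p = 0.0127; rho = 0.45, adjusted p = 0.00117). Over the 68 kept libraries UGT1A6A showed neither relation past 0.05 (r = 0.21, adjusted p = 0.174, and r = 0.08, adjusted p = 0.684), nor did UGT2B35 (r = -0.05, adjusted p = 0.751, and r = -0.24, adjusted p = 0.14). With the log2 total count as a covariate, UGDH kept its calls in S1-10 (-2.65, adjusted p = 0.0136) and S2-32 (-2.26, adjusted p = 0.0119), and UGT2B35 lost its call in S1-32 (-0.98, adjusted p = 0.166). The UGDH change in S1-32 was -1.55 (adjusted p = 0.194) and the UGT2B5 changes in S3-78 and Direct-78 were -2.10 (adjusted p = 0.129) and -0.29 (adjusted p = 0.951), not called, whereas UGT1A6A kept its calls in S1-57 (-1.06) and S3-57 (-0.97) but not in S3-78 (-1.12, adjusted p = 0.0506) or Direct-78 (-0.73, adjusted p = 0.512). Over all tested genes the covariate fit called 72 in S1-10, 200 in S2-32, 36 in S1-32, 57 in S1-57, 223 in S3-57, 117 in S3-78 and 11 in Direct-78. Without the covariate those counts were 121, 235, 642, 35, 141, 294 and 539. Library totals of S1-32, S3-57, S3-78 and Direct-78 did not overlap those of their controls, so the covariate and the exposure cannot be told apart there. Likeness to the mean library was not fitted as a covariate. It was 0.892 to 0.917 in S1-10, 0.904 to 0.921 in S1-32 and 0.8 to 0.926 in S2-32. Control-10 mouse 68 had 0.747, and Control-32 mice 75, 73, 78 and 76 had 0.628, 0.779, 0.796 and 0.835. These mice had the highest UGDH of their control groups, and the other libraries of Control-10 and Control-32 had 0.91 to 0.947. The labels name no sequencing batch, and the part of library quality in the changes of the members was not tested further.

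**Figure D5:**
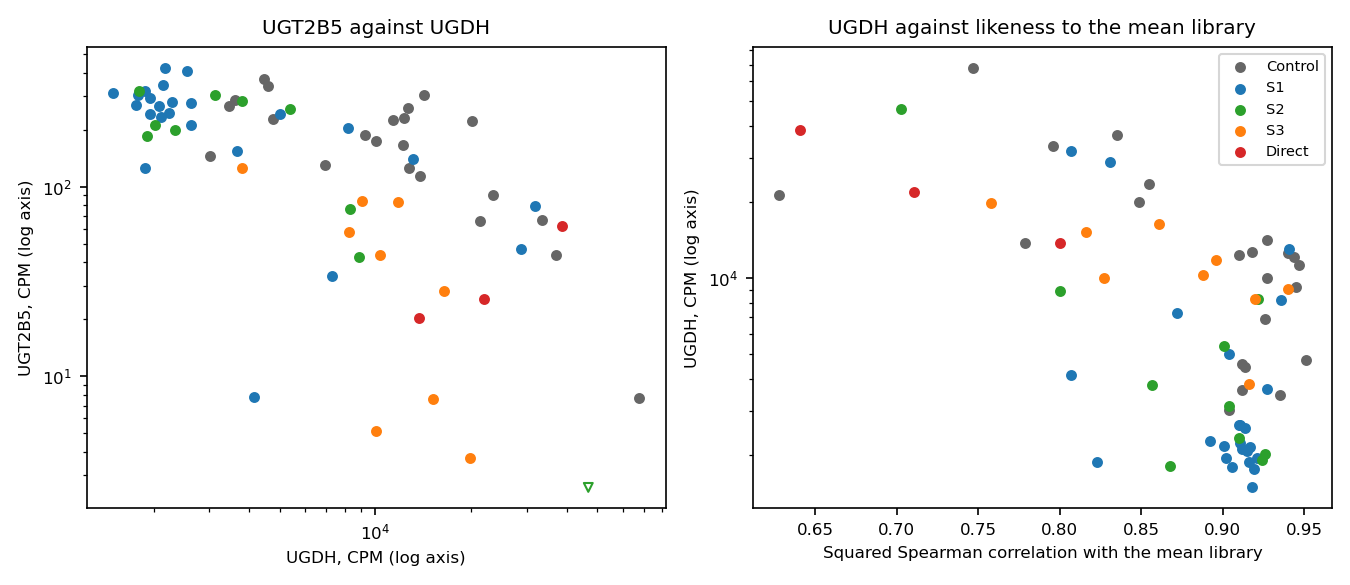
Left, UGT2B5 against UGDH, both in CPM on log axes, with an open triangle at 2.59 CPM for the library with a count of 0. Right, UGDH on a log axis against the squared Spearman correlation of each library with the mean library, 1 point per kept library in both panels: within groups the correlations of the log2 values were -0.64 and -0.57.

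Markers of liver cell types were summed in each library as a check of the tissue. Of 10 hepatocyte markers 5 were measured, with TTR the most abundant and group means of their sum from 22734.8 ± 4072.0 CPM in Direct-78 (SD, n = 3) to 50553.2 ± 21150.4 in S2-32 (n = 6). The 4 periportal markers averaged 3091.4 ± 1095.3 CPM in Direct-78 and 7002.7 ± 5297.1 in S3-78 against 15088.4 ± 4329.3 in Control-78, and the 4 pericentral markers 5411.4 ± 3857.1 and 9591.3 ± 7662.6 against 14208.5 ± 4153.9. S3-78 and Direct-78, where UGT2B5 and UGT1A6A fell, thus had lower means of both sets than Control-78. Each sum rests largely on 1 gene. Over the kept libraries ASS1 averaged 9728.1 CPM beside a median periportal sum of 12220.3, and CYP2E1 averaged 12087.0 beside a median pericentral sum of 13116.3. Direct-78 reached at most 4139.1 CPM of periportal and 9828.8 of pericentral markers, against at least 8225.9 and 10787.9 in Control-78. S3-78 overlapped Control-78 in both sets, with libraries of 938 to 12179.1 and 848 to 19123.3 CPM. The marker sums were not tested, nor was the part of cell composition in the falls of UGT2B5 and UGT1A6A. In S1-57 and S3-57, where UGT1A6A also fell, pericentral markers averaged 12094.4 ± 7794.1 and 10269.6 ± 5552.4 CPM against 13459.5 ± 5623.0 in Control-57. Hepatocyte markers averaged 38084.5 ± 5231.1 and 29126.7 ± 5743.6 CPM there against 36495.2 ± 10901.3, and endothelial markers 209 ± 156 and 94.2 ± 17.2 against 132 ± 15.2. S1-10 had the lowest mean of UGDH, while its median of 2157.7 CPM was above the 1993.4 of S1-78. In S1-10 both sets were above Control-10, at 19561.7 ± 5421.5 against 8366.3 ± 5715.7 CPM for periportal and 21368.2 ± 3382.6 against 14480.4 ± 5171.5 for pericentral markers, while stellate cell and fibroblast markers averaged 132 ± 31.5 against 329.5 ± 114. In S1-32 and S2-32, where UGDH also fell, periportal markers averaged 17369.0 ± 4910.8 and 19989.2 ± 6814.0 CPM against 7627.2 ± 5157.7 in Control-32, and pericentral markers 18772.1 ± 5208.1 and 13677.9 ± 4221.1 against 9886.0 ± 6832.4. Macrophage markers averaged 1466.8 ± 159 CPM in S1-32 and 794 ± 179 in S2-32 against 739.6 ± 262, and stellate cell and fibroblast markers 198 ± 84.1 and 532 ± 193 against 142 ± 62.4. Endothelial markers averaged 337 ± 41.8 CPM in S1-32 and 201 ± 31.1 in S2-32 against 182 ± 75.3. Control-10 mouse 68 had 250.1 CPM of periportal markers. FABP2, the 1 measured gene of 6 listed for gut epithelium and kidney, averaged 3070.0 ± 1410.9 CPM in Direct-78 against 602 ± 504 in Control-78. In the same 2 groups macrophage markers averaged 418 ± 125 against 986 ± 531 and erythroid markers 801 ± 203 against 1365.4 ± 400.3. Exocrine pancreas markers averaged 126 ± 27.2 against 24.7 ± 21.4, cholangiocyte markers 126 ± 128 against 18.3 ± 18.2, and stellate cell and fibroblast markers 128 ± 19.1 against 80.1 ± 23.2. Endothelial markers (134 against 130.1) and lymphocyte markers (36 against 35.2) had close means. Macrophages (5 of 8 markers measured, LYZ2 the most abundant) had a median sum of 946 CPM over the kept libraries, stellate cells and fibroblasts (5 of 7, COL1A1) 162, endothelial cells (4 of 6, KDR) 167, cholangiocytes (2 of 5, KRT19) 17.7, lymphocytes (3 of 6, PTPRC) 39.7 and erythroid cells (4 of 5, HBA-A2) 810.5.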

How the data were processed

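Sections of formalin-fixed liver from 78 mice were assayed by the authors with the TempO-Seq S1500+ panel, 1 library per mouse. The deposited quantification table holds raw counts per gene for 78 libraries and 2755 genes. The authors also deposited normalized values, here called signal, computed in Partek Flow for the 68 libraries they kept, in which each raw count plus 1 is divided by 1 factor for its library. Their filtered table gives this signal for 2205 genes. Raw counts of those 2205 genes and 68 libraries were fitted with edgeR 4.0.16 in R 4.3.3 (quasi-likelihood, TMM factors, 13 groups in 1 fit, two-sided, Benjamini-Hochberg over the 2205 genes in each comparison). Differences between changes were called at an adjusted p of 0.05 alone, since no fold threshold applies. Standard errors are those implied by the F statistic. The code was tested on simulated data.

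Alternatives were RLE and upper-quartile factors, all panel genes with a count, all 78 libraries, DESeq2 1.42.0, limma 3.58.1 on the authors' signal, the log2 total count as a covariate, a fit of the compared groups alone, no fold threshold, and each library left out in turn. Leaving out the 4 libraries with the most pancreas signal and the 2 kept libraries under the correlation limit was chosen after seeing the data. Log2 CPM for correlations used a prior count of 2, and permutations used numpy 2.4.6 and scipy 1.17.1 in Python 3.11.15.

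The named genes are the 5 members, the other UGT genes of the panel, up to 4 genes per list called in the most comparisons (ties by the largest change), and the 3 genes most correlated with each member. The members and lists were chosen with earlier results of these data known. Totals ran from 541245 to 4285848 counts per kept library. Reads are PCR copies without molecular identifiers, so the limit of 3 counts for a count of 0 covers counting error only. No paired analysis was possible, since each mouse gave 1 library. No 2 libraries of a group were copies of each other (151 pairs, smallest chi-square per degree of freedom 26.1).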

Additional observations from a re-analysis of the deposited data

Results flagged for a closer look

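Within groups of 4 to 6 libraries, 7 of 60 tests of the 5 genes found 1 library far from the others by Dixon's criterion, where chance gives about 1 in 20. UGDH stood out as high in Control-10 mouse 68 (67825.9 CPM), S1-32 mouse 19 (5012.1), S1-78 mouse 32 (28714.8) and S2-78 mouse 47 (46804.6). UGT1A6A was low in Control-10 mouse 68 (368 CPM), UGT2B5 was high in S1-32 mouse 22 (407) and UGT2B35 was high in S1-57 mouse 29 (3342.7). Mice 19 and 47 also carried exocrine pancreas signal, and its part in their UGDH values was not tested.

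Changes that differed from that of S1-10 by edgeR's test of the difference were those of UGDH in S3-57 (3.32 on the log2 scale), S1-57 (3.38) and Direct-78 (4.42) and that of UGT2B5 in Direct-78 (-3.06). None of the 4 is called without Control-10 mouse 68 or with the log2 total count as a covariate, and that of UGT2B5 is also lost without any 1 of 6 other libraries.

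Among the 10 libraries that the authors left out, all 8 from DCA groups had UGDH above the highest kept control of their week when all 78 libraries were scaled together. The values were 56702.7 and 51178.9 CPM in S2-78 mice 46 and 48, 47454.5 in S3-57 mouse 52, 40863.4 and 54524.3 in S3-78 mice 57 and 58, and 33373.1, 23824.3 and 47227.2 in Direct-78 mice 61, 62 and 63. Control-10 mouse 67, a left-out water control, had 28292.9 CPM, below its highest kept control (71039.4) and above Direct-78 mouse 62, and the other left-out control, mouse 70, had 5104.5 CPM. The highest kept controls of the later weeks had 24130.5 CPM at week 57 and 21097.9 at week 78. UGT2B35 was above its highest kept control in S3-57 mouse 52 (4711.9 CPM against 3665.1). UGT1A6A was below the lowest kept control of its week in all 10 left-out libraries. It had 93.4 to 587 CPM in those from DCA groups, against at least 936 and 786 in kept controls of weeks 57 and 78. The left-out Control-10 mice 67 and 70 had 126 and 363, against at least 385. UGT2B5 was at 0 to 54.8 CPM in the 8 from DCA groups, against at least 92.5 and 127 in kept controls of weeks 57 and 78. The share of all tested genes outside the range of the kept controls in these 10 libraries was not computed. The counts above are therefore not read as particular to the members. The 8 DCA libraries had 244409 to 658155 counts and squared Spearman correlations with the mean library of 0.127 to 0.624, and the part of library quality in their UGDH, UGT1A6A and UGT2B5 values was not tested.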

How the results depend on the processing

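Over the 5 members, 1004 values were compared with an alternative, from the 9 comparisons with age-matched controls and the 4 called differences between changes: 845 kept their direction and their side of the threshold, 84 were no longer called, 18 became called and 57 changed direction. Over the other named genes, with changes already called in the fit of the report alone, 472 of 627 were kept, 151 were no longer called and 4 changed direction. Unless an alternative is defined by fewer libraries, the cause of a change was not tested.

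Members called moved as follows. With RLE factors 2 were called in S1-10, 0 in Direct-78 and 2 in Direct-78 against S1-78, beside 141, 477 and 520 of all 2205 tested genes. With upper-quartile factors the same comparisons gave 2, 0 and 1, beside 148, 469 and 525. In S1-32 both scalings and DESeq2 gave 3, beside 705, 712 and 847 of all genes. For the Direct-78 change minus the S1-10 change DESeq2 and all 78 libraries gave 3, beside 864 and 976. With DESeq2 the count was 2 in S1-10, 1 in S1-78, 2 in S3-57, 1 in Direct-78, 1 in S2-32 against S1-32, 2 in Direct-78 against S1-78, 1 in Control-57 against Control-10 and 1 for the S1-78 change minus the S1-10 change. In the same order DESeq2 called 244, 85, 247, 601, 147, 680, 155 and 212 of all genes. With limma on the authors' signal it was 0 in S1-10, 1 in Direct-78, 1 in Direct-78 against S1-78, and 0 for the S3-57 and S1-57 changes minus the S1-10 change. Over all genes limma called 35, 546, 658, 99 and 37 there. Fitting the compared groups alone gave 2 in S1-10, 0 in S1-57, 1 in Direct-78, 1 in S2-32 against S1-32, and 2 and 0 for the S3-57 and S1-57 changes minus the S1-10 change. Beside these, 170, 2, 310, 446, 242 and 56 of all genes were called. With the log2 total count as a covariate it was 0 in S1-32, 2 in S3-57, 0 in S3-78, 0 in Direct-78, and 0 for the S3-57, Direct-78 and S1-57 changes minus the S1-10 change. That fit called 36, 223, 117, 11, 24, 11 and 26 of all genes in the same order. With all 78 libraries it was 0 in S1-57, 0 in S3-57, 2 in Direct-78 against S1-78, and 2 and 0 for the S3-57 and S1-57 changes minus the S1-10 change. With all panel genes that had a count it was 1 in Direct-78 and 0 for the S1-57 change minus the S1-10 change. Leaving out the 2 kept libraries under the correlation limit gave 0 in Direct-78, and leaving out the 4 with pancreas signal gave 1 in Direct-78 against S2-78 and 1 against S1-78. Leaving out 1 library at a time gave 0 to 1 in S1-10, S1-57, S1-78, S2-32, Direct-78, Direct-78 against S2-78 and the S3-57 change minus the S1-10 change, 0 to 2 in S3-57, Direct-78 against S1-78 and the S1-57 change minus the S1-10 change, 1 to 3 in S3-78 and 0 to 3 for the Direct-78 change minus the S1-10 change.

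The directions that turned are given for log2 changes against age-matched controls, where no turned change of a member was called in the fit of the report. Other comparisons also had turns, such as UGDH in Direct-78 against S1-78 (1.78, and -0.70 at the lowest), in Control-57 against Control-10 (-1.10, and 0.59 at the highest with 1 library left out) and in the S2-32 change minus the S1-10 change (1.00, and -0.69 at the lowest). UGDH in S1-57 was -0.95 with the covariate, -0.29 with limma and -0.02 with the compared groups alone, and -0.73 to 0.47 with 1 library left out. UGDH in S2-78 was -1.48 with the covariate, -0.50 with limma, -1.36 without the pancreas-signal libraries and -1.37 to 0.73 with 1 library left out. UGDH in S3-57 was 0.01 with RLE factors, 0.64 with all 78 libraries, 0.01 with DESeq2, 0.23 with limma and -0.27 to 0.38 with 1 library left out. UGDH in S3-78 was -1.69 with the covariate and -0.03 to 0.45 with 1 library left out, and in Direct-78 it was -2.46 with the covariate. UGT1A1 in S1-32 was 0.02 with all panel genes, 0.20 with limma and -0.21 to 0.09 with 1 library left out. UGT1A1 in S2-32 was -0.02 with upper-quartile factors, -0.001 without the 2 libraries under the correlation limit and -0.01 to 0.28 with 1 library left out, and in Direct-78 it was 0.01 with upper-quartile factors and 0.02 with the covariate. UGT1A6A in S1-10 was -0.01 with RLE factors, -0.07 with upper-quartile factors, -0.01 with DESeq2 and -0.11 to 0.11 with 1 library left out, and in S2-78 it was 0.07, 0.01 and 0.07 under the same 3 settings. UGT2B5 in S1-57 was 0.09 with the covariate, and in S2-78 it was 0.83 with the covariate, 0.16 without the pancreas-signal libraries and -0.76 to 0.16 with 1 library left out. UGT2B35 in S2-78 was -0.03 with all 78 libraries, -0.21 with the covariate and -0.19 to 0.44 with 1 library left out. UGT2B35 in Direct-78 was 0.40 with RLE factors, 0.47 with upper-quartile factors, 0.40 with DESeq2, 0.06 with the compared groups alone and -0.38 to 0.34 with 1 library left out. Among called changes of other genes in Direct-78, UGT2B36 was 0.08, ABCC2 0.21, SLCO2B1 0.44 and KEAP1 0.11 with the covariate.

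Depth and exposure moved together in several comparisons. At week 78 the 3 Direct-78 libraries had at most 699825 counts and those of S3-78 at most 1936370, while every Control-78 library had at least 2098777. At week 57 S3-57 had at most 2030701 counts against at least 2223516 in Control-57. At week 32 S1-32 had at least 2979117 counts against at most 2731045 in Control-32. The covariate and the exposure cannot be told apart in these comparisons. Each group has 3 to 6 libraries, 1 per mouse, and detection limits were not tested. Probe positions are not in the files, so signal from closely similar UGT transcripts was not tested.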
